A study of Mus musculus with 12 samples.

Results

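The comparison set CD8a cells against CD4 cells of the same spleens, in the 3 wild-type mice that were not stressed. Members were 2166 genes whose average expression was listed for both cell types, of 3684 genes listed for either (2999 for CD4 and 2851 for CD8a cells). The 3 mice are part of 12. The other 3 groups of 3 mice each served to ask whether the difference between the cell types held elsewhere. They were C57Bl6/J wild type after repeated social defeat, S100a9-/- without stress, and S100a9-/- after repeated social defeat. A paradigm of 10 days and 1 day of behaviour testing are given for all 12 mice, the unstressed ones included. S100a9-/- mice were on the C57Bl6/J background and lack a calcium-binding protein that is abundant in neutrophils and monocytes. Splenocytes of all 12 mice were collected on day 12 and profiled by droplet single-cell RNA sequencing of transcript 3' ends. The sources used here give neither ages, sexes and the design of the S100a9 allele nor the way in which cells were assigned to CD8a or CD4.

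CD4 and CD8 T cells both arise in the thymus from precursors that carry both coreceptors. CD8 binds MHC class I on any nucleated cell and marks cells that can become cytotoxic, whereas CD4 binds MHC class II on antigen-presenting cells and marks helper and regulatory cells. Most T cells in the spleen of an unchallenged mouse are naive, and a smaller pool has effector or memory features.

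Each value is the authors' average expression of a gene in the cells of 1 type from 1 mouse, written here as units on a scale of 10000 per mouse. The tables do not state that scale, and it was taken from the sums: the genes listed for both cell types summed to 7145, 7182 and 7250 in CD8a cells and 7033, 7091 and 7102 in CD4 cells. The number of cells and of molecules behind an average is unknown, so no counting error can be given. Such a value is relative to all RNA of that cell type, and a lower value in a larger RNA pool cannot be told apart from fewer molecules per cell. It also cannot separate fewer expressing cells from less RNA in each. Differences are CD8a minus CD4 on the log2(value + 0.1) scale within a mouse, tested with limma and with Benjamini-Hochberg adjustment over all 2166 genes. Calls below are adjusted p-values under 0.05. Errors are standard errors for log2 differences and SD for levels, with n = 3 mice unless stated.

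CD8a cells differed from CD4 cells in 418 of 2166 genes (19.3%), of which 187 (8.63%) were higher and 231 (10.7%) lower. Counts of calls in the gene lists below are to be read against these shares. The higher genes held the few large differences: 15 exceeded 1 on the log2 scale, against 4 of the lower genes, and 41 higher and 32 lower genes exceeded 0.5. Most calls were small, with a median size of 0.27 among higher and 0.32 among lower genes. The values of the 3 CD8a and 3 CD4 samples did not overlap for 624 genes (28.8%), which included 140 of the higher and 210 of the lower calls. The balance of directions depended on scale. Centring each mouse on its median difference gave 231 higher and 191 lower genes, and removal of ribosomal and mitochondrial genes with rescaling of the rest gave 107 higher and 273 lower. Without a mean-variance trend in the fit 50 were higher and 62 lower, and with the cell types of a mouse treated as unpaired 80 were higher and 124 lower. Of 67 genes named by rule, 31 lost their call without the trend and 12 without pairing.

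**Figure D1:**
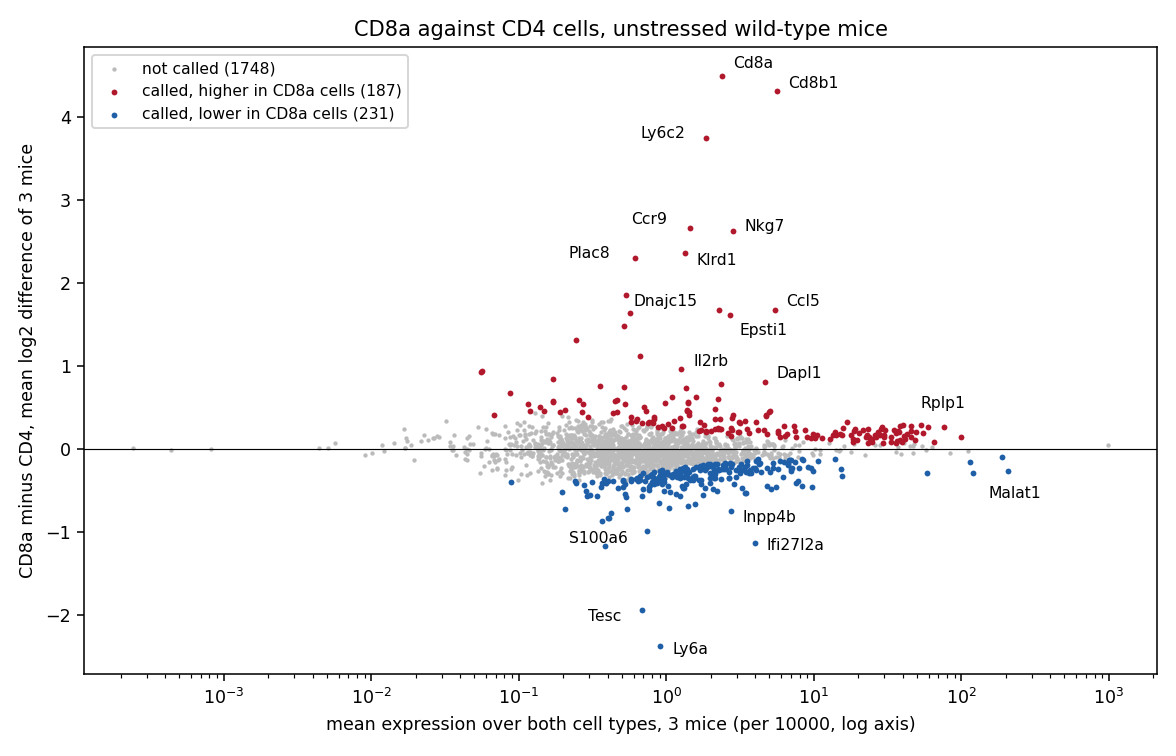
Mean log2 difference, CD8a minus CD4, over 3 unstressed wild-type mice (y axis) against mean expression over both cell types per 10000 on a log axis (x axis). Each point is 1 of 2166 genes; 187 were called higher (red), 231 lower (blue) and 1748 were not called (grey), and 15 higher and 4 lower genes differ by over 1, with Ly6a and Tesc the lowest.

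The labels were checked first against the coreceptors. Cd8a (chromosome 6, 71373427 to 71379173, plus strand), the alpha chain of CD8, had 4.86, 4.45 and 4.63 units in CD8a cells of mice 1, 2 and 3, against 0.160, 0.118 and 0.0625 in CD4 cells. Cd8b1 (chromosome 6, 71322788 to 71337494, plus strand), the beta chain that pairs with it, had 11.2, 10.3 and 10.8 units in CD8a cells and 0.822, 0.291 and 0.352 in CD4 cells. The samples of both types lay far apart for both genes, by 41.0-fold for Cd8a and 22.02-fold for Cd8b1 in the means. If cells were assigned by these transcripts, which the sources used here do not say, the values describe that choice. Cd8b1 over Cd8a was 2.31, 2.31 and 2.33 in CD8a cells and 5.14, 2.47 and 5.64 in CD4 cells. The ratio of 3' tags was thus nearly constant among CD8a samples and varied among CD4 samples, where both genes were low. Cd4 was listed only for CD4 cells, at 2.73, 3.01 and 2.58 units, and its level in CD8a cells was not analysed here.

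Markers of other splenic cells were also measured. Summed over 9 B-cell and MHC class II genes, expression was 9.51, 4.14 and 4.35 units in CD8a cells and 9.67, 5.75 and 3.89 in CD4 cells. Mouse 1 was thus the highest in both cell types. None of the 9 genes was called by limma, and 4 passed an unadjusted p under 0.05, 1 higher and 3 lower. The sum of 4 neutrophil genes was at most 0.047 units in either cell type, and 4 erythroid and platelet genes summed to 0.850, 0.077 and 0.034 units in CD8a cells and 0.141, 0.092 and 0.089 in CD4 cells.

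Genes known from CD8 T cells were higher together. All 8 genes of a CD8-lineage list that were listed for both cell types were called higher, with a median of 2.49 on the log2 scale against -0.03 over all 2166 genes. They comprised Cd8a, Cd8b1, Ccr9, Gzmm, Klrd1, Il2rb, Nkg7 and Dapl1. The other 16 names of the list were listed for 1 cell type or neither, and the list was chosen with results of these data known.

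Promoter sequences are shown for 5 genes of this comparison: the coreceptor itself, 3 genes higher in CD8a cells whose window holds the RUNX motif TGTGGT on either strand, and 1 lower gene without it. Capitals mark the match, which reads as its reverse complement where the other strand holds it. RUNX3, a transcription factor known to silence Cd4 and activate CD8-lineage genes, binds this motif. Each window is the 250 bases before the annotated start, 5′ to 3′ on the strand of the gene, from RefSeq on GRCm38.p6.
Cd8a (chr6:71373177-71373426, + strand): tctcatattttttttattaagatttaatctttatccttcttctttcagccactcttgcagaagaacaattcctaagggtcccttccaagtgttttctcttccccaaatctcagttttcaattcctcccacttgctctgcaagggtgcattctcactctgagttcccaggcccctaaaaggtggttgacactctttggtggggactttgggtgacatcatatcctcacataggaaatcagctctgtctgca
Ly6c2 (chr15:75111972-75112221, - strand): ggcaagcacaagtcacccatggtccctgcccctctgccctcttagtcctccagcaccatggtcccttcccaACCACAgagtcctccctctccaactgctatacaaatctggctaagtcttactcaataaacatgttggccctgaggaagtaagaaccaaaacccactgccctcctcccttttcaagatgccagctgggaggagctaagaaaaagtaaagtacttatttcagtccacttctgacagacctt
Cst7 (chr2:150570165-150570414, + strand): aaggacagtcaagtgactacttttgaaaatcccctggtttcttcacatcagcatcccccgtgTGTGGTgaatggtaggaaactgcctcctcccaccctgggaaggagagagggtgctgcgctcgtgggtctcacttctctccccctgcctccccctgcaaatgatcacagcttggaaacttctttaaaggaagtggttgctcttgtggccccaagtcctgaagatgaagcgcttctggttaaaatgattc
Gzmm (chr10:79688770-79689019, + strand): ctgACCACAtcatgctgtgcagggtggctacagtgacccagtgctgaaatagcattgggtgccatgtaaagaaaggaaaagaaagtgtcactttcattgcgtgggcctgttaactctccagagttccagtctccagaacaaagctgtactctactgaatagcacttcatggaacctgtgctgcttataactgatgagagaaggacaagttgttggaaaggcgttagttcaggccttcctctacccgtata
Tesc (chr5:118027493-118027742, + strand): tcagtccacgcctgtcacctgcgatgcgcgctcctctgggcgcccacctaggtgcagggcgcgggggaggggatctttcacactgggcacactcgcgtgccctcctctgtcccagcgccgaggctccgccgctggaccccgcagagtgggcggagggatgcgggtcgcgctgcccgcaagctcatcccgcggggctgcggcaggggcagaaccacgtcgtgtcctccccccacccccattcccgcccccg

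The RUNX motif stood on either strand in the same window of 9 of 32 promoters (28.1%) of genes higher by over 0.5, those of Ly6c2, Nkg7, Plac8, Ms4a4c, Cst7, Jaml, Klra1, Gzmm and Fam189b. It stood in 3 of 19 (15.8%) of genes lower by over 0.5, in 11.3% of 1595 genes tested with a promoter in the table, and in 14.2% of all 27025 promoters. Among all called genes the share was 13.7% of 139 higher and 9.36% of 171 lower genes. Cd8a and Tesc have no match in the windows shown. The T-box motif TCACACC, searched on both strands, whose matches can overlap a RUNX match, was in 4 of 32 (12.5%) and 0 of 19, against 2.88% of genes tested and 3.31% of all promoters. The other 3 motifs searched were no more frequent among genes higher by over 0.5 than among genes tested: ETS (CCGGAA) stood in 1 of 32 (3.12%) against 26.7%, TCF/LEF (CTTTGAA) in 1 of 32 against 3.45%, and the interferon-stimulated response element (ISRE) in 1 of 32 against 3.64%. These shares are descriptions of letters in windows, with no test.

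Ly6c2, a surface protein of the Ly6 family that marks memory and some naive CD8 T cells, had 3.04, 3.92 and 3.71 units in CD8a cells, against 0.193, 0.264 and 0.0837 in CD4 cells. No sample of either type came near the other, and the difference was 3.75 ± 0.15 (limma, adjusted p = 5.2e-09). Its near-identical neighbour Ly6c1 was listed only for CD4 cells, at 1.04 ± 0.274 units, so the division of reads between the pair is uncertain. Ccr9, the receptor for the gut chemokine CCL25, had 3.19, 2.17 and 2.32 units in CD8a cells and 0.347, 0.262 and 0.334 in CD4 cells. The difference was 2.67 ± 0.09 (adjusted p = 1.5e-09).

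Nkg7, a granule protein of cytotoxic lymphocytes, had 4.96, 5.30 and 4.50 units in CD8a cells and 0.808, 1.01 and 0.430 in CD4 cells. Klrd1, which encodes the CD94 chain of NKG2 receptors, had 2.22, 2.32 and 2.39 in CD8a cells and 0.423, 0.300 and 0.392 in CD4 cells. The chemokine gene Ccl5, typical of memory CD8 T cells, had 6.99, 11.4 and 6.66 units in CD8a cells and 2.45, 3.22 and 1.87 in CD4 cells. All 3 genes were separate between the cell types in every mouse, with differences of 2.62 ± 0.12, 2.36 ± 0.09 and 1.68 ± 0.06. In both cell types mouse 2 had the most Nkg7 and the most Ccl5. Il2rb, the beta chain of the receptors for interleukins 2 and 15, had 1.74, 1.99 and 1.38 units in CD8a cells and 0.896, 0.916 and 0.668 in CD4 cells, a 2.06-fold difference in the means.

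These last 4 genes are also transcribed in natural killer cells. They are the 4 members of a natural killer list that were listed for both cell types, and they summed to 15.9, 20.997 and 14.9 units in CD8a cells and 4.57, 5.45 and 3.36 in CD4 cells. Among its other members, Fcer1g and Tyrobp were listed only for CD4 cells, at 0.0399 and 0.0552 units, and Klra7 and Klre1 only for CD8a cells, at 0.166 and 0.248. Fcer1g and Tyrobp are also on the monocyte, macrophage and dendritic list, so they are not specific to natural killer cells. The part of natural killer cells in these differences was not tested.

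The cytotoxic, effector and memory list had 20 genes listed for both cell types, of which 9 were higher and 5 lower (median 0.11). Genes on the higher side included Gzmm, a granzyme, with 0.104, 0.108 and 0.0991 units in CD8a cells and 0, 0.015 and 0.0066 in CD4 cells. Anxa2 (0.84 ± 0.15) and Ahnak (0.56) were higher too, whereas S100a6, Lgals1, Ly6a and Id2 were lower. The list therefore did not move as a unit. Plac8, Ms4a4c and Cst7, named after their values were seen, were among the other large differences. Cst7, an inhibitor of lysosomal proteases in cytotoxic cells, had 0.855, 0.899 and 0.657 units in CD8a cells and 0.217, 0.196 and 0.253 in CD4 cells (1.48 ± 0.13). Plac8 had 1.17, 1.03 and 1.03 in CD8a cells and 0.283, 0.0857 and 0.0883 in CD4 cells (2.31 ± 0.16), and it was the riser among 5 monocyte, macrophage and dendritic genes, of which 1 was lower. The granzyme and perforin genes Gzma, Gzmb and Prf1 were listed only for CD4 cells, at 0.0709, 0.0232 and 0.218 units.

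**Figure D2:**
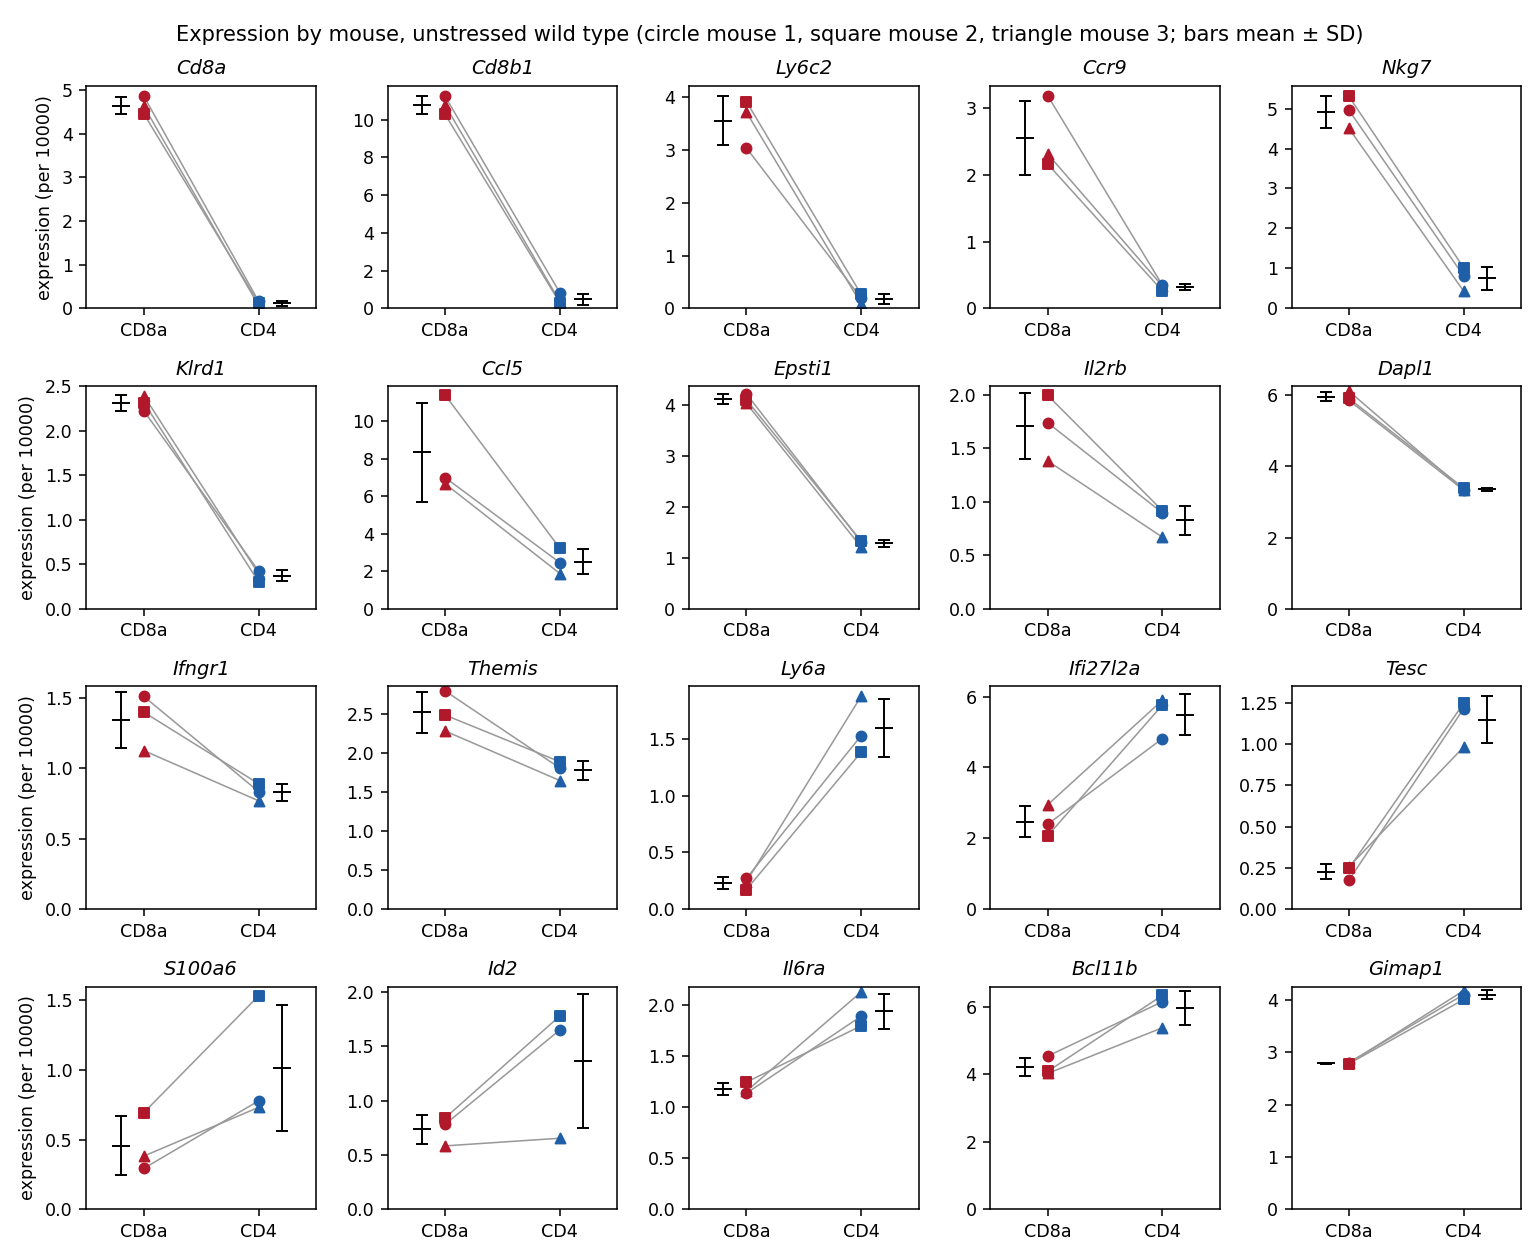
Expression per 10000 in CD8a (red) and CD4 (blue) cells for 20 genes in 3 unstressed wild-type mice; lines join the cell types of 1 mouse and bars are mean ± SD. Cd8a had 4.45 to 4.86 units in CD8a cells against 0.0625 to 0.160 in CD4 cells, and Id2 is the gene shown whose samples overlap.

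Dapl1, a marker of naive CD8 T cells, had 5.86, 5.91 and 6.12 units in CD8a cells and 3.33, 3.39 and 3.33 in CD4 cells. The spread was small in both types, and the 1.78-fold difference in means was called (0.81 ± 0.04, adjusted p = 3.6e-08). Dnajc15, a mitochondrial cochaperone, was 3.42-fold higher with 3.80, 3.56 and 3.22 units in CD8a cells and 1.14, 1.00 and 0.961 in CD4 cells. Epsti1, known as an interferon-induced gene, was 3.21-fold higher with 4.22, 4.10 and 4.03 units in CD8a cells and 1.31, 1.33 and 1.21 in CD4 cells. Both were separate by a wide margin in each mouse. Smaller rises were seen in Cmah (0.79 ± 0.06), which modifies sialic acids, in Klk8 (0.73 ± 0.07), a secreted protease, and in Fam189b (0.62 ± 0.07).

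The largest fall was in Ly6a, the stem cell antigen Sca-1, which had 0.270, 0.171 and 0.241 units in CD8a cells and 1.53, 1.38 and 1.88 in CD4 cells. The CD4 mean was 7.02-fold that of CD8a cells (-2.38 ± 0.11, adjusted p = 1.5e-08). Tesc, a calcium-binding regulator named after its values were seen, followed with 0.175, 0.247 and 0.256 units in CD8a cells and 1.22, 1.25 and 0.983 in CD4 cells (-1.94 ± 0.13). Ifi27l2a, an interferon-stimulated gene, had 2.39, 2.07 and 2.94 units in CD8a cells and 4.81, 5.76 and 5.90 in CD4 cells, where the mean was 2.22-fold higher. All 3 genes were lower in CD8a cells of every mouse, without overlap. The urea cycle enzyme gene Ass1 (-1.18) was the fourth gene to fall by over 1.

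Of the Ly6 family, which clusters on chromosome 15, Ly6c2 was thus higher, Ly6a and Ly6e lower, and Ly6k not called. Ly6e averaged 6.46 ± 0.473 units in CD8a cells and 8.64 ± 0.27 in CD4 cells (-0.42 ± 0.04). The Gimap family of immunity GTPases on chromosome 6, which support lymphocyte survival, had 4 lower members (Gimap1, Gimap3, Gimap4 and Gimap9) of the 6 listed for both cell types. Gimap1 had 2.81, 2.79 and 2.79 units in CD8a cells and 4.11, 4.01 and 4.18 in CD4 cells (-0.54 ± 0.04, adjusted p = 3.9e-06). Gimap4 differed by -0.46, and Gimap7 (-0.16) and Gimap8 (-0.09) were not called. Gimap1 was at -0.51 when each mouse was centred and at -0.56 after removal of ribosomal and mitochondrial genes.

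Genes typical of CD4, helper and regulatory cells were mostly listed for CD4 cells only, so their levels in CD8a cells were not analysed here. Tnfrsf18, which encodes the costimulatory receptor GITR, was listed for both and was lower (-0.72 ± 0.10), and Slamf6 was not called (0.05). In CD4 cells Icos, a costimulatory receptor of helper cells, averaged 0.726 units and Cd40lg, the ligand by which helper cells engage CD40, averaged 0.486 ± 0.0975. Ikzf2, a transcription factor abundant in regulatory T cells, averaged 1.80 ± 0.275 units, Izumo1r, the folate receptor 4 of regulatory and anergic cells, 1.54 ± 0.0625, and Il2ra, the interleukin 2 receptor alpha chain, 0.471. Of genes listed only for CD8a cells, Ctsw, a cysteine protease of cytotoxic cells, averaged 1.48 ± 0.161 units and Cd160 0.486. Being listed for 1 cell type is the authors' selection and does not show expression in that type alone. It also went against the lineage lists: Cxcr6, Itgae and Tbx21 of the CD8 list were listed only for CD4 cells, at 0.410, 0.0591 and 0.0505 units, and Tnfsf8 of the CD4 list only for CD8a cells, at 0.768.

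T cell receptor and general T cell genes were lower or not called. Among 8 such genes listed for both cell types 4 were lower and 0 higher (0 also at an unadjusted p under 0.05), with a median of -0.14. Over all 2166 genes 10.7% were lower and 8.63% higher. Cd3d (0.05) and Cd3g (-0.02), signalling chains of the receptor, were not called. Trbc2, a constant region of the receptor beta chain, was lower (-0.32 ± 0.03), but its near-identical copy Trbc1 was listed for CD4 cells alone. Bcl11b, a transcription factor needed for T cell identity, had 4.54, 4.09 and 4.03 units in CD8a cells and 6.16, 6.35 and 5.38 in CD4 cells (-0.49 ± 0.05). Cd2 (-0.25 ± 0.06), an adhesion receptor, and Lef1 (-0.18), a transcription factor of naive cells, completed the 4. The call of Cd2 was lost without mouse 1 (adjusted p = 0.11), without mouse 2 (0.058), without pairing (0.072) and without the trend (0.12).

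Among 17 genes of receptor signalling 2 were higher and 6 lower, against 8.63% higher and 10.7% lower over all 2166 genes. The higher pair was Themis, a thymocyte selection factor, with 2.79, 2.48 and 2.28 units in CD8a cells and 1.80, 1.89 and 1.65 in CD4 cells (0.48 ± 0.06), and Grap2, an adaptor (0.41 ± 0.05). The lower genes included Tespa1 (-0.56 ± 0.07), a regulator of receptor signalling in thymocytes, Rasgrp1 (-0.48), an activator of Ras, and the adaptors Lcp2 (-0.38), which encodes SLP-76, and Lat (-0.22). Rasgrp1, Lcp2 and Lat were named after their values were seen.

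Genes of naive cells split, with 4 of 11 higher and 4 lower. Klf2 (0.27 ± 0.06), which controls exit from lymphoid organs, and Klf3 (0.24) were higher. Satb1 (-0.27 ± 0.03), a chromatin organiser, and Foxo1 (-0.41), which maintains quiescence, were lower, and Tcf7 was not called (-0.10). Receptors that guide homing likewise differed among themselves: Cxcr4 had 0.731, 0.656 and 0.641 units in CD8a cells and 0.354, 0.398 and 0.338 in CD4 cells, while Gpr183, the oxysterol receptor, was lower (-0.48).

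Of 12 cytokine receptor and signalling genes 3 were higher and 4 lower. Besides Il2rb, Ifngr1, a chain of the interferon gamma receptor, was higher with 1.51, 1.40 and 1.12 units in CD8a cells and 0.833, 0.889 and 0.768 in CD4 cells (0.63 ± 0.08). Il6ra, the interleukin 6 receptor, was lower with 1.13, 1.24 and 1.16 in CD8a cells and 1.89, 1.79 and 2.13 in CD4 cells (-0.67 ± 0.07, adjusted p = 4.4e-05). Both were separate between the cell types. Tgfbr2, a receptor for TGF-beta, was lower too (-0.37).

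Interferon-response genes summed to 33.5 ± 0.412 units in CD8a cells and 41.9 ± 0.432 in CD4 cells over 25 genes, of which 2 were higher, 7 lower and 16 not called (median -0.00). Ly6a, Ifi27l2a, Ly6e and Slfn2 (-0.53 ± 0.06), which maintains T cell quiescence, were among those lower, and Oas3 (0.45) and Ifi213 (0.32) were the higher ones. On centring, 5 of the 25 were higher. Abundant genes weigh most in the sum, such as Ifi27l2a (mean 2.47 units in CD8a and 5.49 in CD4 cells) and Ly6e (6.46 and 8.64). Epsti1, the interferon-induced gene that was higher (1.61 ± 0.05), is not on this list. MHC class I and proteasome genes mostly were not called (21 of 24). H2-Q7 was higher (0.27 ± 0.04) and H2-D1 lower (-0.12), and reads of such similar genes may be divided wrongly. Without pairing H2-D1 was not called (adjusted p = 0.16).

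**Figure D3:**
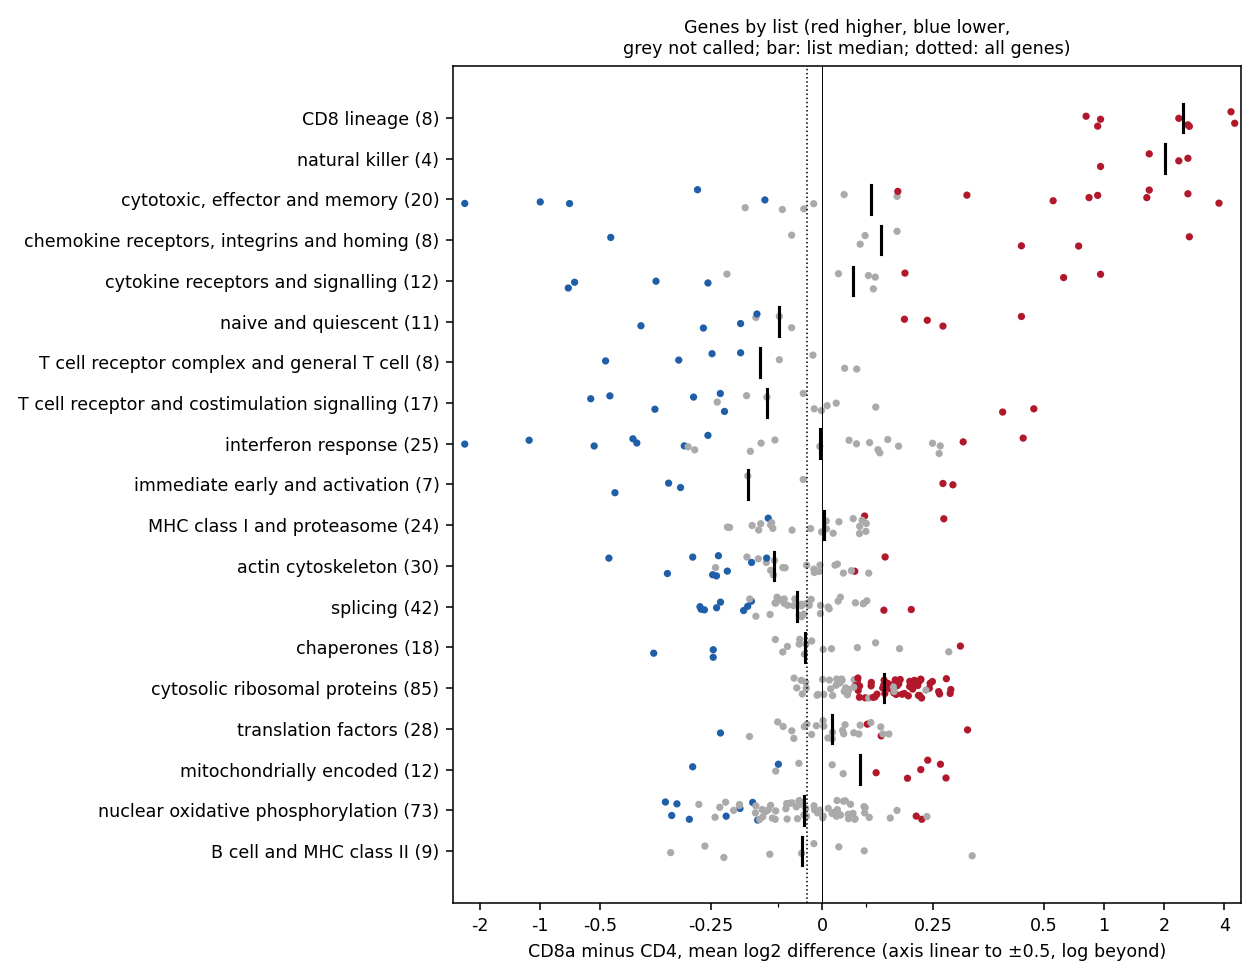
Log2 differences, CD8a minus CD4, of single genes grouped by list (numbers of genes in brackets; axis linear to ±0.5 and logarithmic beyond; black bar: list median; dotted line: median of all genes, -0.03). CD8-lineage genes lie to the right with a median of 2.49, ribosomal protein genes cluster at 0.14, and actin genes lie mostly left of 0 with a median of -0.11.

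Inpp4b, a phosphatase acting on phosphoinositides, was lower with 2.20, 2.05 and 1.82 units in CD8a cells and 3.93, 3.11 and 3.36 in CD4 cells (-0.75 ± 0.06). St8sia4 (-0.69 ± 0.07), which adds polysialic acid, Pecam1 (-0.57 ± 0.07), an inhibitory adhesion receptor, and Ddit4 (-0.51 ± 0.08), an inhibitor of mTORC1, fell as well. Id2, an inhibitor of E proteins that favours effector cells, was called lower (-0.71 ± 0.14, adjusted p = 0.0036), but its samples overlapped, at 0.782, 0.841 and 0.583 units in CD8a cells and 1.65, 1.78 and 0.654 in CD4 cells. In mouse 3 the values were nearly equal, and the adjusted p was 0.14 without pairing and 0.094 without a trend.

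Ribosomal protein genes made up the largest group of higher calls. Of 85 cytosolic ribosomal protein genes 54 were higher and 0 lower (61 and 2 at an unadjusted p under 0.05 in limma), with a median of 0.14. Their sum was 2469, 2496 and 2651 units in CD8a cells and 2253, 2264 and 2455 in CD4 cells, so the lowest CD8a sum lay only just above the highest CD4 sum. Both subunits took part, with 33 of 50 large and 21 of 35 small subunit genes higher. Rpl32, for example, had 59.1, 58.0 and 58.9 units in CD8a cells and 48.8, 45.9 and 49.4 in CD4 cells (0.29 ± 0.02, adjusted p = 2.4e-06). The number of calls rested on the pairing and on the trend: 10 were higher without pairing, 0 without the trend (limma; 34 at an unadjusted p under 0.05), and 61 when each mouse was centred. Genes with many processed pseudogenes, as these have, may share reads with them.

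Other genes of translation and energy metabolism were called in both directions. Eef1b2, an elongation factor subunit, was higher (0.33 ± 0.03). Of 28 translation factors 3 were higher and 1 lower, against 8.63% higher and 10.7% lower over all 2166 genes. Among 12 mitochondrially encoded genes 6 were higher and 2 lower. The higher ones included mt-Nd2 (0.28 ± 0.02) and mt-Nd1 (0.24 ± 0.02) of respiratory complex I, while the ribosomal RNA mt-Rnr1 was lower (-0.29 ± 0.03). The 12 genes summed to 482 ± 35.1 units in CD8a cells and 499 ± 32.2 in CD4 cells. Of 73 nuclear genes of oxidative phosphorylation 2 were higher and 8 lower, so the lower share was close to that over all genes. Mitochondrial genes have nuclear copies whose reads may be shared, and without the trend 0 of the 12 were called in limma (5 higher and 1 lower at an unadjusted p under 0.05). The 8 lower oxidative phosphorylation genes became 4 on centring and 1 without pairing, where mt-Nd2 had an adjusted p of 0.064.

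Cytoskeletal genes were lower in sum, at 306 ± 4.72 units in CD8a cells and 338 ± 8.37 in CD4 cells over 30 actin genes, of which 9 were lower and 2 higher. Actb, cytoplasmic beta actin, had 53.0, 52.8 and 50.9 units in CD8a cells and 64.1, 65.2 and 62.5 in CD4 cells (-0.29 ± 0.02). Pfn1 (-0.25), which promotes actin assembly, and Flna (-0.48), which crosslinks filaments, were also lower. The 9 lower actin genes were 5 without pairing and 2 without the trend. Splicing genes had 2 higher and 8 lower of 42, and 2 were lower without pairing. Chaperones had 1 higher and 3 lower of 18, and immediate early and activation genes 2 higher and 3 lower of 7. Over all 2166 genes 8.63% were higher and 10.7% lower. Malat1, a nuclear noncoding RNA, had 188, 178 and 195 units in CD8a cells and 219, 219 and 237 in CD4 cells (-0.26 ± 0.02, adjusted p = 1.0e-06). Without pairing the adjusted p was 0.061 for Malat1 and for Pfn1. Jund (-0.47 ± 0.05), an AP-1 subunit, Fth1 (-0.46 ± 0.03), the ferritin heavy chain, and Ets1 (-0.45 ± 0.04), a lymphoid transcription factor, were other abundant transcripts that were lower.

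The 9 mice outside this comparison gave the same measure in samples that it did not use. All 9 had the sign of the unstressed wild-type difference for 607 of 2166 genes (28%), and for 138 of the 187 higher genes (73.8%), 170 of the 231 lower genes (73.6%) and 17.1% of genes not called. The groups called 163 genes higher and 352 lower after stress in wild type, 275 and 543 in unstressed knockout, and 158 and 208 in stressed knockout mice. Of the 418 genes, 304, 349 and 251 were also called with the same sign in those 3 groups, and 2, 1 and 1 with the opposite sign. Cd8a, Cd8b1, Ly6c2, Ccr9, Nkg7, Klrd1, Epsti1 and Ly6a kept their sign in 9 of 9 mice. Few called genes (7 higher and 3 lower) had the same sign in under 5 of the 9, among them B2m, Cd48 and S100a11.

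**Figure D4:**
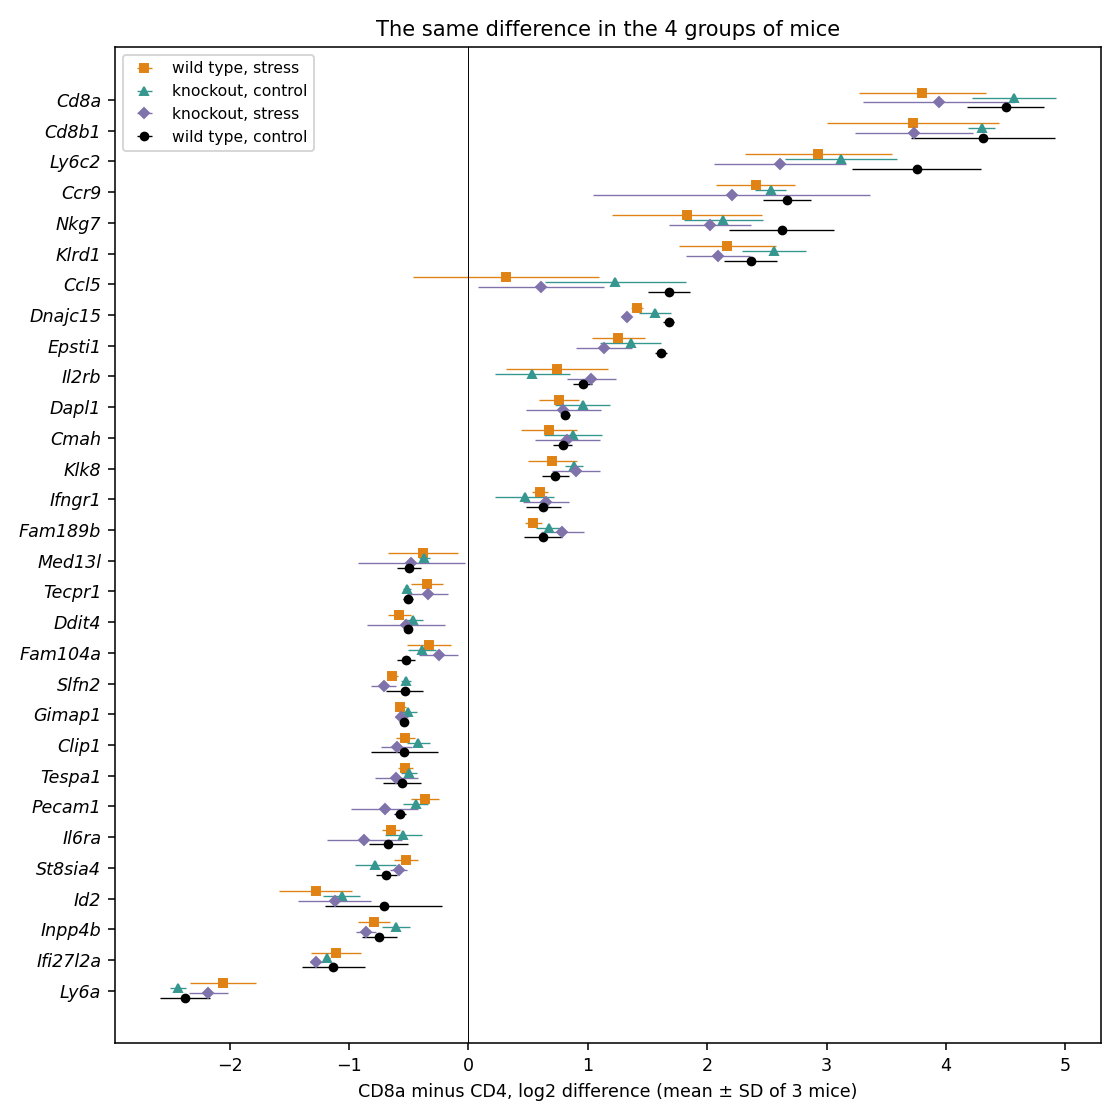
Log2 difference, CD8a minus CD4, for 30 genes in 4 groups of 3 mice (points: mean; bars: SD), with unstressed wild type in black at the bottom of each set. Signs of the means are shared by all 4 groups for the genes shown. Fam104a in stressed knockout mice is nearest to 0, at -0.25 ± 0.16, and Ccl5 in stressed wild-type mice is at 0.32 ± 0.78.

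The differences between cell types were then compared between groups, with all 12 mice in 1 limma fit. By stress in wild type, 1 gene of 2166 (0.0462%) was called, and 169 (7.8%) passed an unadjusted p under 0.05. It was Cd74, the invariant chain of MHC class II and a marker of B cells and other antigen-presenting cells. In stressed wild-type mice it had 0.644, 0.515 and 1.15 units in CD8a cells and 1.51, 1.42 and 2.38 in CD4 cells. In unstressed wild-type mice it had 2.49, 1.23 and 1.03 in CD8a cells and 2.88, 1.70 and 1.05 in CD4 cells. The gap was wider in each stressed mouse than in any unstressed one, and the change in the log2 difference was -0.91 ± 0.14 (adjusted p = 0.0034). Without unstressed wild-type mouse 3 the adjusted p was 0.083. The share of B-cell transcripts differed between mice, as given above, and its part in this change was not tested. For Ccl5, CD8a cells of stressed wild-type mice had 18.3, 16.5 and 21.6 units and CD4 cells 22.8, 7.19 and 20.4, so the lead of CD8a cells was lost in mouse 1 and small in mouse 3. The change against unstressed mice (-1.36 ± 0.29) was not called (adjusted p = 0.17), although it passed without stressed mouse 2 (0.0012) and with only the 6 mice compared (0.023).

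By genotype in unstressed mice, 3 genes (0.139%) were called, and 167 (7.71%) passed an unadjusted p under 0.05. All 3 are listed among effector and memory genes. S100a6, a calcium-binding protein of activated cells, had 0.311, 0.249 and 0.269 units in CD8a cells and 5.01, 4.22 and 1.47 in CD4 cells of knockout mice. In wild-type mice it had 0.294, 0.694 and 0.382 in CD8a cells and 0.779, 1.53 and 0.732 in CD4 cells. The gap between cell types was thus wider in each knockout mouse, with a change of -2.12 ± 0.30 (adjusted p = 0.0012), and CD4 cells of knockout mouse 3 lay within the wild-type range.

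Lgals1, a galectin, had 1.13, 0.969 and 0.941 units in CD8a cells and 4.74, 3.88 and 1.57 in CD4 cells of unstressed knockout mice. In unstressed wild-type mice it had 1.18, 1.41 and 1.03 in CD8a cells and 1.40, 1.69 and 1.36 in CD4 cells, and the change was -1.24 ± 0.23 (adjusted p = 0.018). Knockout mouse 3 again differed from the other two. S100a11, a relative of S100a6, had 1.92, 1.91 and 1.76 units in CD8a cells and 3.76, 3.13 and 1.89 in CD4 cells of knockout mice, and 1.80, 2.09 and 1.77 in CD8a cells and 1.54, 1.59 and 1.32 in CD4 cells of wild-type mice (-0.90 ± 0.16, adjusted p = 0.018). It was higher in CD8a cells in 3 of 3 unstressed wild-type mice and in 0 of the 9 others. Without knockout mouse 3, 13 genes were called, and leaving out any other mouse of these groups left 1 call, S100a6. S100a9 itself averaged 0.0363 and 0.0449 units in CD8a and CD4 cells of unstressed knockout mice and 0.0175 and 0.011 in those of wild-type mice. After stress S100a9 averaged 0.0273 and 0.0251 units in CD8a and CD4 cells of knockout mice and 0.0703 and 0.0920 in those of wild-type mice. It was thus low in both genotypes, their order differed with stress, and it does not check the labels in T cells.

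**Figure D5:**
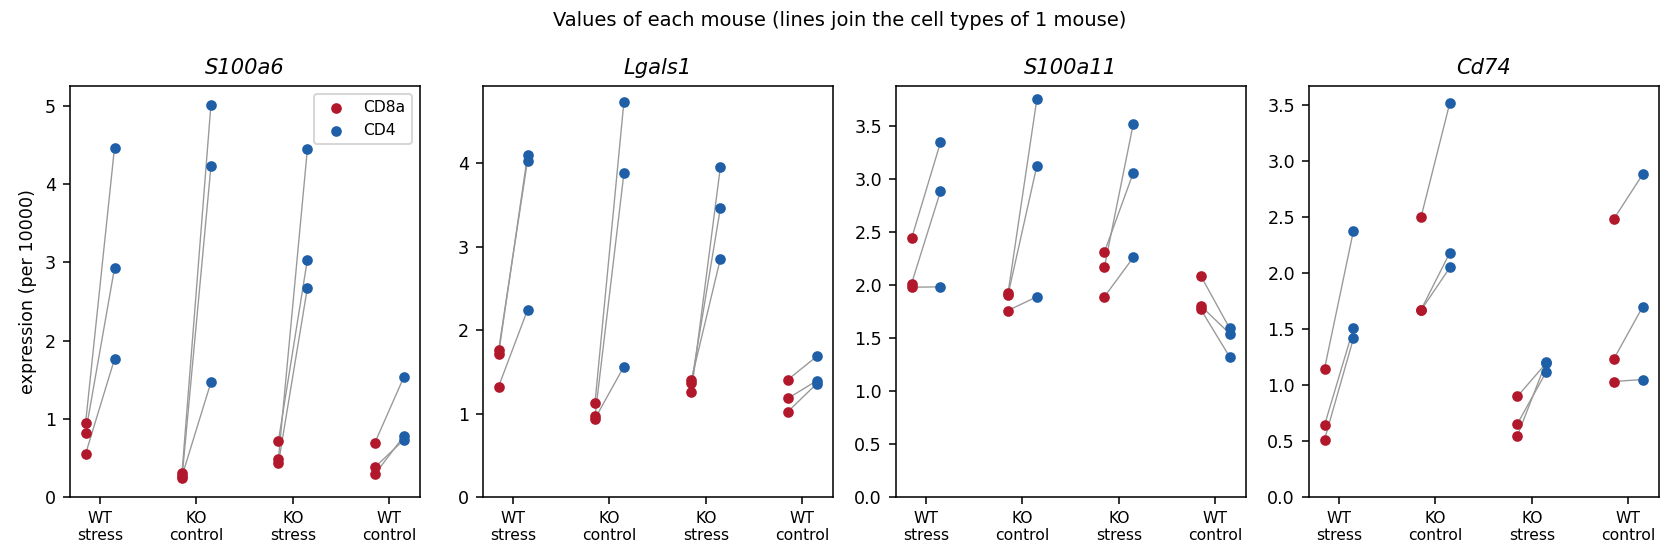
Expression per 10000 (y axis) of 4 genes in CD8a (red) and CD4 (blue) cells of each mouse in 4 groups (x axis; WT wild type, KO knockout), with lines joining the cell types of 1 mouse. S100a6 in CD4 cells reaches 5.01 units in unstressed knockout mice against at most 1.53 in unstressed wild-type mice, and S100a11 slopes the other way in unstressed wild-type mice alone.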

How the data were processed

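Splenocytes of 12 mice, with erythrocytes lysed, were profiled with the 10x Genomics 3' v2 kit, per the labels' protocols, and the submitters' processing notes name Cell Ranger 2.1.1 and mm10. The authors deposited 8 tables, 4 per cell type, of a signal, the mean expression per mouse (named so in their headers), which is linear, never negative and not whole. The sources used here do not give the rule that selected the listed genes, the cell filters or the treatment of doublets. Genes were listed for stress or genotype comparisons, so they are not a random sample of genes. A gene had the same values in every table of a cell type (0 differed), and no column was left unused (0). With averages only, no count model was fitted and depth is unknown.

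The value was taken as log2(value + 0.1), which understates the change of low genes. CD8a minus CD4 within each mouse was fitted in R 4.3.3 by limma 3.58.1 (moderated variances with a mean-variance trend), and p-values were two-sided. Both cell types came from the same animal, so they were paired. Same-mouse deviations from the group means correlated across genes (r = 0.30, 0.20 and 0.29). Deviations of a gene sum to 0 over the 3 mice, so the values for different mice (-0.23 to -0.08) are not a separate comparison. Spread between 3 mice includes any technical part. Changes of this difference by stress and by genotype were fitted to all 12 mice.

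Members and gene lists were chosen with earlier results of these data known. The text names the coreceptor genes, the 15 largest called differences each way with a mean at or above the median and the same sign in 3 mice, and the 3 smallest p of lists with at least 3 calls; other genes were named after their values were seen. A gene that the rule named is not reported here. GENCODE M21 gave positions for 97.4% of symbols, and RefSeq (GRCm38.p6) the promoters. In 20637 of 20674 RefSeq windows checked, the bases matched a GENCODE transcript from the point where that transcript starts inside the window. This checks the strand and reading direction of the windows, not the annotated starts. In simulated data for the unstressed wild-type comparison (2166 genes, 200 changed), 45.1% of changes of 0.25, 93.4% of 0.5 and 100% of 1 were recovered, with 4.59% false calls. The simulated noise was normal and independent between genes, so real shares may differ. Its spread was the moderated variance with the trend, and the same model was then fitted. The share of false calls was therefore largely set by the simulation and cannot test the trend. Alternatives were other pseudocounts, a filter on low values, centring, rescaling, no trend, no pairing, all 12 mice in 1 fit, a narrower gene set and leaving out each mouse.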

Additional observations from a re-analysis of the deposited data

Results flagged for a closer look

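4 genes had a difference between CD8a and CD4 cells that itself differed between groups of mice, by an interaction term in limma. Cd74 changed by -0.91 with stress in wild type. S100a6 changed by -2.12, Lgals1 by -1.24 and S100a11 by -0.90 with genotype in unstressed mice.

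CD8a minus CD4 for S100a6 averaged -1.78 in stressed wild-type, -3.12 in unstressed knockout, -2.41 in stressed knockout and -0.995 in unstressed wild-type mice. For Lgals1 the averages were -1.02, -1.52, -1.27 and -0.28 in the same order of groups, and for S100a11 they were -0.31, -0.57, -0.44 and 0.33. Unstressed wild-type mice were thus the group nearest to or above 0 for all 3 genes. For Cd74 the averages were -1.14, -0.38, -0.70 and -0.22.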

How the results depend on the processing

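The 418 genes called in the unstressed wild-type comparison (187 higher and 231 lower) stayed within 1.5 times in each direction with pseudocounts of 0.01 or 1, a filter on low values, centring, all 12 mice in 1 fit and the narrower gene set. Removal of ribosomal and mitochondrial genes gave 107 higher, no mean-variance trend gave 50 higher and 62 lower, and no replicate block (unpaired cell types) gave 80 higher and 124 lower; the cause was not tested. Leaving out 1 mouse gave 143 to 205 higher and 159 to 224 lower. Of 67 genes named by the rule, 36 were called in every setting that held them and 0 changed sign; Ccl5, Ly6c2, Nkg7 and Gimap1 were among the 36.

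The change by stress had 1 call. It had 0 without the trend (161 at an unadjusted p under 0.05 in limma), 5 with only the 6 mice compared, and 2 with mouse number as a replicate block, although numbers did not pair mice of different groups. Leaving out 1 mouse gave 0 to 3: 0 without unstressed wild-type mouse 3 (147 at an unadjusted p under 0.05), 2 without unstressed mouse 2 and 3 without stressed mouse 2. The change by genotype had 3 calls, 0 without the trend (146 at an unadjusted p under 0.05 in limma), 3 with the block, and 1 to 13 when 1 mouse was left out. Unknown cell numbers limit the precision of low values.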
